A study of Homo sapiens with 28 samples.

Results

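The peaks of the Flag-tagged CTD of ASH1L were compared with the peaks of H3K36me2 along the unirradiated genome of U2OS cells, an osteosarcoma line. The 5 lists of broad peaks without UV were chosen by their labels out of 10 deposited lists. There were 3 lists for the CTD and 2 for H3K36me2, and after the gene ASH1L itself (chromosome 1, 155335268 to 155563162 in hg38) was left out they held 2499812 peaks. The CTD lists came from ASH1L-/- cells, obtained by CRISPR/Cas9 deletion and grown from individual colonies, that were transfected with the CTD under a CMV promoter and precipitated with anti-FLAG M2. The H3K36me2 lists came from wild-type cells precipitated with ab9049. No cells of either group were irradiated. Peaks had been called over empty-vector ChIP of the same ASH1L-/- line for the CTD and over pooled input for H3K36me2, so that the mark, genotype, transfection, antibody and control differed together between the groups and cannot be told apart.

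ASH1L is a methyltransferase whose catalytic SET domain dimethylates lysine 36 of histone H3. The CTD holds this domain together with the bromo, PHD and BAH domains and the motif that binds MRG15 (gene MORF4L1), a reader of methylated H3K36 that releases the enzyme from self-inhibition. H3K36me2 is a broad mark of gene bodies and intergenic chromatin, laid down mainly by NSD1 and NSD2, whereas H3K36me3 is placed by SETD2 in the bodies of transcribed genes. The question addressed here was whether the domain and the mark are dense in the same parts of the genome.

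Each list had been deposited with 500000 peaks, so the density over the whole genome was fixed at about 172 peaks per Mbp in every list and only its distribution could differ. Median peak widths were 512, 472 and 422 bp in CTD replicates 1, 2 and 3 and 621 and 611 bp in H3K36me2 replicates 1 and 2. The lists reached down to weak peaks. A −log10 p of 2 or more was held by 41362, 29308 and 32853 CTD peaks and by 221362 and 204031 H3K36me2 peaks. Between 45.0% and 49.5% of the CTD peaks overlapped a peak of another CTD list by at least 1 bp, against 64.3% and 65.5% for H3K36me2. A CTD peak could overlap either of the other CTD lists and an H3K36me2 peak only the other H3K36me2 list. These shares are therefore not directly comparable between the groups. The peaks left out because they overlapped ASH1L numbered 42, 48 and 56 for the CTD and 15 and 27 for H3K36me2. The lists carry no read depth and no expression values, so the cell line was not checked against marker genes.

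The starts of single genes show the kinds of sequence concerned. Of 19969 protein-coding starts, 141 had a CTD peak centre within 500 bp in all 3 lists and no H3K36me2 peak within 2 kb, and 39 had an H3K36me2 peak centre in both lists and no CTD peak within 2 kb. The promoters below run from 250 bases before to 50 bases after the RefSeq start, with CG dinucleotides in capitals, and stand for the first kind. They are the highest-ranked by CTD −log10 p that had a RefSeq start within 500 bp of the GENCODE start.
LONRF2 (GRCh38.p14, chr2:100322452-100322751, minus strand): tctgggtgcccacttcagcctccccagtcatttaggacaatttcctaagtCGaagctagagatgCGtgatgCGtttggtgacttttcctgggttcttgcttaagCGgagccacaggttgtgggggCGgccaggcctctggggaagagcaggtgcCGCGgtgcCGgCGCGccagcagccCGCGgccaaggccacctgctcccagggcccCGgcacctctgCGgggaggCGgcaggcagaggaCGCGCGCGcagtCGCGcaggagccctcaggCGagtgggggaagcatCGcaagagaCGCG
SPRYD7 (GRCh38.p14, chr13:49936291-49936590, minus strand): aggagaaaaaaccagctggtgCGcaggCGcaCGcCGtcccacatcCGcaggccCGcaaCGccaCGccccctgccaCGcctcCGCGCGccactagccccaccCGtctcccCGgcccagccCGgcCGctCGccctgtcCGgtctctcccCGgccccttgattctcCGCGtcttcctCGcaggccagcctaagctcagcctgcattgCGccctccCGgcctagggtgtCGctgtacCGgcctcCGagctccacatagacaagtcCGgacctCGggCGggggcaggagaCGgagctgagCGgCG
BDP1 (GRCh38.p14, chr5:71455401-71455700, plus strand): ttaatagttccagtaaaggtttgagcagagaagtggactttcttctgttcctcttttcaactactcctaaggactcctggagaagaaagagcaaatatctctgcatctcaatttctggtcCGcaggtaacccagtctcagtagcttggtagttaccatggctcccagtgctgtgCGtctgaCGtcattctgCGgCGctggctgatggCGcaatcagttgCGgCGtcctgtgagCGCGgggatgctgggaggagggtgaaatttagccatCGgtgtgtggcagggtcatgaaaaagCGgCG
BDP1 encodes a subunit of the RNA polymerase III factor TFIIIB, and LONRF2 a RING finger protein. These windows held 25 CG dinucleotides in LONRF2, 33 in SPRYD7 and 13 in BDP1.

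The second kind, with H3K36me2 peaks in both lists and none of the CTD, is represented by the highest-ranked starts chosen in the same way, which stood at ranks 7, 8 and 9 of 39 by −log10 p.
MS4A13 (GRCh38.p14, chr11:60515142-60515441, plus strand): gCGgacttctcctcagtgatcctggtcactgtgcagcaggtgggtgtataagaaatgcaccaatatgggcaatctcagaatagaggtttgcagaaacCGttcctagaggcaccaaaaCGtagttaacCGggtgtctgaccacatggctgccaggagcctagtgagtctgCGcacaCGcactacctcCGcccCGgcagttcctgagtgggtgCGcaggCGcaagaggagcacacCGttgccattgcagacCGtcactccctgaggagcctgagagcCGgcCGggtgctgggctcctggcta
CER1 (GRCh38.p14, chr9:14722684-14722983, minus strand): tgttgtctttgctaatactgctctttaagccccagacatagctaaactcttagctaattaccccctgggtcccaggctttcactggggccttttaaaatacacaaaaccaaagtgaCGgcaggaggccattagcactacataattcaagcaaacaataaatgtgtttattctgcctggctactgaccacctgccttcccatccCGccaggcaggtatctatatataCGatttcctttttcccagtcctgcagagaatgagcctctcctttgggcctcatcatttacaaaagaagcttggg
NALCN (GRCh38.p14, chr13:101416459-101416758, minus strand): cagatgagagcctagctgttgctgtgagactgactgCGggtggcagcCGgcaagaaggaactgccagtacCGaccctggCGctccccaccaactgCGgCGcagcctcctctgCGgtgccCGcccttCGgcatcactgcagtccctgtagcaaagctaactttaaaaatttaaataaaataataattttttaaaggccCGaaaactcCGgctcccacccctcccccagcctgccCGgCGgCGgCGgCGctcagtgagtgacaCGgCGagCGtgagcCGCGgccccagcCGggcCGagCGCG
CER1 encodes a secreted antagonist of BMP and Nodal signalling, and NALCN a sodium leak channel. The windows held 14 CG dinucleotides in MS4A13, 3 in CER1 and 25 in NALCN, so single starts of the second kind reached the counts of the first. NALCN lies in a block of chromosome 13, described later, where the CTD lists were nearly empty throughout, so the absence of CTD peaks was not particular to its start.

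Over all members of these sets, the kb around the start had a median GC content of 59.9% and a median of 63 CG dinucleotides per kb (quartiles 49 and 78) for the 141 CTD starts. The 39 H3K36me2 starts had a median GC content of 53.1% and a median of 22 CG dinucleotides (quartiles 7 and 44). All coding starts had medians of 59.2% and 58 (quartiles 22 and 84). The CTD set therefore lay close to the average start and the H3K36me2 set below it. All 1222 starts with a peak centre in both H3K36me2 lists, whatever the CTD, had medians of 54.4% and 25 (quartiles 12 and 53). The low values were thus not particular to starts without the CTD.

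The CTD was dense at gene starts and H3K36me2 was sparse there. Within 500 bp of coding starts there were 316, 264 and 253 CTD peaks per Mbp and 111 and 119 H3K36me2 peaks per Mbp. Relative to the genome these densities were 1.84, 1.54 and 1.47 for the CTD and 0.645 and 0.693 for H3K36me2. Every CTD list lay above the genome density and every H3K36me2 list below it. On the log2 scale the means were 0.69 ± 0.17 (SD, n = 3) and −0.58 ± 0.07 (SD, n = 2), a difference of 1.27 (SE 0.11) and a fold of 2.41. With the starts of all annotated genes the difference was 0.47, and 0.42 at equal GC content, and H3K36me2 stood at the genome density with log2 values of −0.05 and 0.01. The two-sided exact permutation test of 3 lists against 2 gave p = 0.2, which is the smallest value it allows, so none of the 6 densities compared here could pass 0.05. Benjamini-Hochberg adjustment cannot lower it.

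The profile around the start showed where the lists parted. In the 500 bp downstream of the start the relative CTD density was 1.97, 1.56 and 1.59, whereas H3K36me2 stood at 0.72 and 0.77. From 1.5 to 1 kb upstream H3K36me2 rose above its surroundings, to 1.19 and 1.27, and there the lists of both groups overlapped, the CTD lying at 1.35, 1.23 and 1.09. A smaller rise of H3K36me2, to 1.03 and 1.11, lay between 1.5 and 2 kb downstream. Both H3K36me2 lists lay below the genome density from 1 kb upstream to 1.5 kb downstream, and the CTD lists lay above it throughout. The H3K36me2 lists were also below it, less deeply upstream, from 10000 to 2500 bp upstream (0.88 to 0.99). From 2500 to 10000 bp downstream they stood at 0.72 to 0.94, so their deficit was not confined to the start.

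Gene starts are rich in GC, and GC content was therefore held equal. Compared with windows of the same GC content elsewhere, the CTD density at starts was 1.09, 1.16 and 1.23 times that of other windows, and the H3K36me2 density was 0.581 and 0.528 times. The CTD excess over windows of equal GC content was thus smaller than that over the genome in all 3 lists, while the H3K36me2 deficit was larger. The log2 means were 0.21 ± 0.09 (SD, n = 3) and −0.85 ± 0.10 (SD, n = 2), and the difference of 1.06 (SE 0.09) remained above the spread between lists (exact permutation p = 0.2). With a window of 1 kb either side of the start, CTD replicate 1 stood at −0.06, below its GC expectation, and with bases covered in place of peak centres at −0.05.

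The GC content of the start itself separated the marks further. Starts were divided into 3 groups of equal size by the GC content of the surrounding kb. In the group of lowest GC content (median 47.2%), the relative density was 1.5, 1.35 and 1.27 for the CTD and 1.05 and 1.02 for H3K36me2. In the group of highest GC content (median 68.4%), it was 1.96, 1.52 and 1.59 for the CTD and 0.30 and 0.37 for H3K36me2. Relative to the GC expectation, H3K36me2 fell from 0.83 and 0.77 at the former to 0.37 and 0.35 at the latter, and the CTD lay between 1.07 and 1.24 in all 3 groups. At the 18756 starts of long non-coding RNA genes (median GC content 48.1%) H3K36me2 stood at 1.03 and 1.08 of the genome density and the CTD at 1.53, 1.3 and 1.25. These starts, like the coding starts of lowest GC content, showed no depletion of the mark against the genome.

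The starts bearing a CTD peak differed from list to list. A peak centre lay within 500 bp of 31.4%, 26.3% and 25% of coding starts in CTD replicates 1, 2 and 3, and of 11% and 11.9% in H3K36me2 replicates 1 and 2. Of the 6271 starts with a peak in CTD replicate 1, 30.4% had one in CTD replicate 2, against 26.3% of all starts, and 26.7% had one in CTD replicate 3, against 25% of all starts. Of the 2205 starts of H3K36me2 replicate 1, 55.4% had a peak in replicate 2, against 11.9% of all starts. Recurrence of the CTD at single starts was therefore close to its frequency at all starts, and that of H3K36me2 was not. In all, 526 starts (2.63%) had a CTD peak in all 3 lists, 1222 (6.12%) had an H3K36me2 peak in both, and 36 had all 5.

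The 5 CTD starts of highest −log10 p without H3K36me2 were those of ADAT2, which encodes a tRNA adenosine deaminase subunit, LONRF2, SPRYD7, BDP1 and FBXO22, an F-box protein of a ubiquitin ligase. Their mean −log10 p over the 3 lists lay between 1.88 and 1.93, and all were weak peaks. At ADAT2 the fold enrichment was 1.88, 1.82 and 2.47 in CTD replicates 1, 2 and 3. The 5 H3K36me2 starts without the CTD were those of ANXA8, an annexin with a near-identical copy in the genome whose peaks are therefore uncertain, GNAI1, an inhibitory G protein subunit, MYOC, encoding myocilin, KLKB1, encoding plasma kallikrein, and TMCO5A. Their mean −log10 p lay between 2.61 and 3.34. At GNAI1 the fold enrichment was 2.44 and 2.23 in H3K36me2 replicates 1 and 2.

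The CTD was denser inside coding genes than outside them, and H3K36me2 was sparser. Gene bodies held 191, 191 and 187 CTD peaks per Mbp and sequence outside coding genes 153, 154 and 158. For H3K36me2 the order was the opposite, with 162 and 164 peaks per Mbp in gene bodies and 181 and 178 outside. The log2 ratio of gene body to intergenic density was 0.29 ± 0.04 (SD, n = 3) for the CTD and −0.14 ± 0.03 (SD, n = 2) for H3K36me2, and the lists did not overlap (difference 0.43, SE 0.03, exact permutation p = 0.2).

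Within the bodies of coding genes of 50 kb or more, H3K36me2 was highest early and fell toward the end. It reached 1.07 and 1.09 of the genome density in the upstream flank, above its values in the body. In the second of 10 equal parts of the gene it stood at 1.05 and 1.06 of the genome density, and in the last part at 0.87 and 0.87. In the first 5 kb past the gene end it was 0.85 and 0.88. The CTD lay at 1.07, 1.08 and 1.08 in the second part, at 1.15, 1.12 and 1.09 in the last and at 1.3, 1.21 and 1.16 past the end. Relative to the GC expectation the CTD was 1.05, 1.06 and 1.07 in the 5 kb past the gene end, where H3K36me2 had its lowest value, 0.74 and 0.75. The early maximum of H3K36me2 within the gene body and its fall at the gene end were present in both lists, and in none of the CTD lists.

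The CTD was denser than H3K36me2 in short genes and sparser in the longest. In the 8352 coding genes shorter than 20 kb, the CTD density relative to the genome was 1.54, 1.35 and 1.13 and that of H3K36me2 0.71 and 0.81. In the 322 genes of 500 kb or more, the order turned, with 0.87, 0.91 and 0.97 for the CTD and 1.08 and 1.05 for H3K36me2. Relative to the GC expectation, genes shorter than 20 kb stood at 1.00, 1.05 and 0.98 for the CTD and at 0.58 and 0.62 for H3K36me2. At equal GC content the CTD was thus even and H3K36me2 was not.

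Outside genes, the density of H3K36me2 peaked at a distance and that of the CTD fell steadily. Within 10 kb of a coding gene the relative density was 1.26, 1.18 and 1.08 for the CTD and 1.03 and 1.05 for H3K36me2. Between 10 and 50 kb H3K36me2 was highest, at 1.18 and 1.19, against 1.10, 1.06 and 1.03 for the CTD. Farther than 500 kb from any coding gene the CTD dropped to 0.50, 0.56 and 0.65 and H3K36me2 to 0.78 and 0.74. At equal GC content, H3K36me2 reached 1.25 and 1.23 between 200 and 500 kb, and the CTD stayed between 0.95 and 0.99 there. Farther than 500 kb the CTD was at 0.75, 0.71 and 0.75 of its GC expectation and H3K36me2 at 1.04 and 1.03.

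At the scale of megabases, and before GC content was held equal, CTD density rose with gene density and H3K36me2 density did not. Gene-rich bins of 1 Mb, with at least 10 coding starts (664 bins), held 240, 222 and 199 CTD peaks per Mbp and 152 and 162 H3K36me2 peaks per Mbp. Gene-poor bins, with at most 1 coding start (802 bins), held 117, 128 and 142 CTD peaks and 165 and 158 H3K36me2 peaks per Mbp. The CTD ratio of gene-rich to gene-poor bins was 2.05, 1.74 and 1.40, and that of H3K36me2 was 0.917 and 1.02. Their log2 means were 0.77 ± 0.28 (SD, n = 3) and −0.05 ± 0.11 (SD, n = 2), which differed by 0.82 (SE 0.18, exact permutation p = 0.2).

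With GC content held equal, gene-rich bins held slightly more CTD peaks than gene-poor bins and fewer H3K36me2 peaks. Gene-rich bins then held 1.11, 1.24 and 1.14 times the CTD density of gene-poor bins and 0.546 and 0.571 times the H3K36me2 density. The log2 means were 0.21 ± 0.08 (SD, n = 3) and −0.84 ± 0.05 (SD, n = 2), and the difference was 1.05 (SE 0.06, exact permutation p = 0.2). Without the 234 bins with a mean of under 50 peaks, an alternative added after the data were seen, the CTD values were −0.02, 0.14 and 0.02 and those of H3K36me2 −1.04 and −0.97. Without them the CTD ratio was near even in replicates 1 and 3.

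In bins with 20 or more coding starts (227 bins, median GC content 47.7%), the number of H3K36me2 peaks was 0.61 and 0.64 of that expected from GC content and that of CTD peaks 0.99, 1.06 and 1.00. In bins with exactly 1 coding start (364 bins), H3K36me2 stood at 1.32 and 1.3 of expectation and the CTD at 1.03, 0.99 and 1.02. In bins with no coding start (438 bins) the CTD fell below expectation, to 0.84, 0.80 and 0.83, and H3K36me2 stood at 1.12 and 1.09, below its value in bins with 1 start. The density of CTD peaks over 2921 bins ranked with the number of coding starts with a Spearman's rho of 0.50, 0.46 and 0.26 and that of H3K36me2 with −0.09 and −0.01. With GC content the rho was 0.64, 0.52 and 0.21 for the CTD and −0.11 and 0.01 for H3K36me2. These bins share their base composition, and GC content and coding starts ranked together with a rho of 0.69.

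At the scale of 1-kb windows, GC content did not separate the groups, although over bins of 1 Mb it ranked differently with their densities. In GC-rich windows (55% or more) there were 342, 261 and 221 CTD peaks per Mbp and 202 and 241 H3K36me2 peaks, and in GC-poor windows (under 38%) 74.3, 112 and 135 CTD peaks and 85.4 and 80.3 H3K36me2 peaks. The ratio of GC-rich to GC-poor was 4.60, 2.33 and 1.64 in CTD replicates 1, 2 and 3, a wider range than the 2.37 and 3.00 of H3K36me2, which lay inside it. The difference in log2 ratio was −0.04 (SE 0.47, exact permutation p = 1.0). Its sign depended on the list left out, from −0.45 without CTD replicate 1 to 0.30 without CTD replicate 3.

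The shapes of the GC curves differed nevertheless. H3K36me2 peaked at 50 to 55% GC in replicate 2 and at 45 to 50% in replicate 1, and dropped in windows of 65% or more to 102 and 147 peaks per Mbp. The CTD kept 297, 228 and 224 peaks per Mbp in those windows, above both H3K36me2 lists. The contrast between gene-rich and gene-poor bins at one GC content was seen directly at 45 to 50%. There H3K36me2 had 191 and 201 peaks per Mbp in gene-rich bins and 365 and 372 in gene-poor bins, and the CTD 291, 252 and 210 against 283, 224 and 209.

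**Figure D1:**
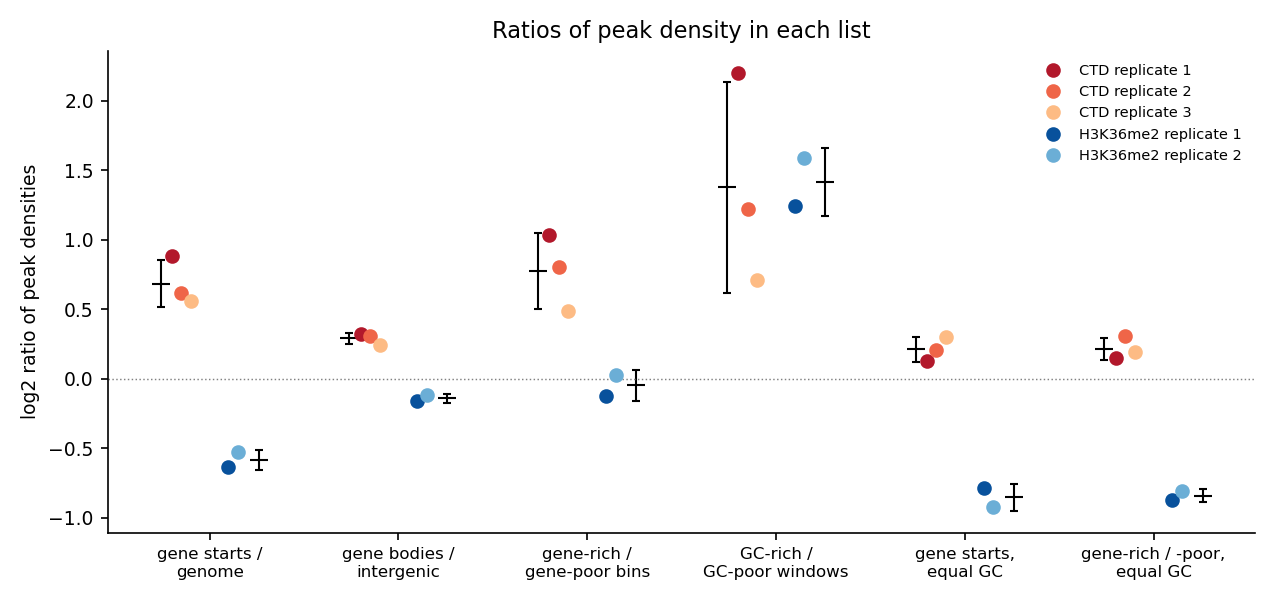
Log2 ratios of peak density in each list (points), with the mean and SD of the CTD (n = 3) and of H3K36me2 (n = 2) as black bars, for the 6 ratios compared. CTD and H3K36me2 points are separate in 5 of the 6 ratios and overlap for GC-rich against GC-poor windows, where the CTD lists range from 0.71 to 2.2.

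Whole bins of 1 Mb were then compared across the genome with limma. Of 2803 bins with a mean of at least 10 peaks, 658 (23.5%) were denser in the CTD lists and 692 (24.7%) were sparser, at an adjusted p under 0.05 and with no overlap between the lists of the groups. Without the requirement of a test, 32.8% of bins had all CTD lists above and 37.3% all below the H3K36me2 lists. The bins denser in the CTD had a median of 11 coding starts and a GC content of 44.6%, and those sparser a median of 2 coding starts and 38.2%. Relative to the GC expectation, an alternative added after the data were seen, 32.4% and 37% of bins were called, and 1348 of the 1350 bins were called in the same direction. The number called fell to 656 without H3K36me2 replicate 1 and to 837 without H3K36me2 replicate 2, and rose to 2120 with robust peaks only.

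Called bins lay together. Of those sparser in the CTD, 344 (49.7%) lay in runs of 5 or more neighbours, the longest of 26 bins on chromosome 3 from 140 to 166 Mb, with 86.5, 92.0 and 107 CTD peaks per Mbp and 228 and 223 H3K36me2 peaks per Mbp. Of those denser, 223 (33.9%) lay in such runs, the longest of 20 bins at the start of chromosome 19, which has 606 coding starts and held 223, 214 and 203 CTD peaks and 91.2 and 114 H3K36me2 peaks per Mbp. On chromosome 19, 45 of 53 bins were denser in the CTD and 0 sparser by the same limma rule. At equal GC content this chromosome held 0.89, 0.94 and 0.91 of the expected CTD peaks and 0.44 and 0.49 of the expected H3K36me2 peaks. The X chromosome held few peaks of either kind, 0.24, 0.25 and 0.31 of the genome density for the CTD and 0.28 and 0.28 for H3K36me2.

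The bins with the largest deficit of the CTD were the neighbours at 85, 89, 90 and 92 Mb of chromosome 13. At 89 to 90 Mb there were 2, 0 and 4 CTD peaks and 133 and 124 H3K36me2 peaks (limma log2 difference −5.71, SE 0.76, adjusted p = 0.000609). They belonged to a block from 81 to 112 Mb, in which 30 of 31 bins were called sparser and which was delimited after its values were seen. Over the block the CTD lists had 9.56, 8.14 and 17.9 peaks per Mbp and the H3K36me2 lists 140 and 133. The edges were sharp. The bin before it had 113, 112 and 106 CTD peaks and the bin after it 304, 276 and 224. The rest of chromosome 13 held 118, 126 and 126 CTD peaks and 132 and 125 H3K36me2 peaks per Mbp. This block was thus close to empty in all 3 lists from ASH1L-/- cells, and the cause was not tested. The lists give neither the copy number of this block in the ASH1L-/- line nor its empty-vector signal, so a difference of the line and a difference of CTD binding cannot be told apart here or in the genes of the block. Without it, 662 bins remained called as sparser. The largest deficits among these were in bins of the X chromosome and of chromosome 21. On chromosome 21 the bin from 38000001 to 39000000 had 15, 16 and 30 CTD peaks and 110 and 103 H3K36me2 peaks.

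The bins with the largest excess of the CTD were scattered. On chromosome 20 from 42 to 43 Mb, within PTPRT, a receptor-type tyrosine phosphatase gene, there were 246, 224 and 218 CTD peaks and 9 and 7 H3K36me2 peaks (limma log2 difference 4.68, SE 0.18, adjusted p = 8.87e-06). The bin from 106 to 107 Mb of chromosome 14, which holds part of the immunoglobulin heavy-chain locus, had 87, 74 and 83 CTD peaks and 3 and 3 of H3K36me2. The others lay from 54 to 55 Mb on chromosome 11, with the olfactory receptor genes OR4A5, OR4A8 and OR4C46, and from 63 to 64 Mb on chromosome 7, with the zinc finger gene ZNF722. The chromosome 11 bin had 58, 70 and 79 CTD peaks against 3 and 4, and the chromosome 7 bin had 118, 85 and 88 against 6 and 6. In all 4 bins the H3K36me2 lists were nearly empty and the CTD lists were not. The bins on chromosomes 14, 11 and 7 lay below the genome density of about 172 peaks per Mbp in every CTD list. They held 0.45 to 0.58 of the CTD peaks expected from GC content, so the CTD was sparse there too, and H3K36me2 more so.

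Single genes were compared in the same way. Among 5553 coding genes of 50 kb or more with a mean of at least 10 peaks, 1696 (30.5%) were denser in the CTD lists and 490 (8.82%) were sparser by limma, and 41% and 20.8% were above or below without overlap. Relative to the GC expectation the shares called were 36.3% and 13.4%. The median gene differed by 0.21 in log2, and quantile normalization moved this median to −0.11 and the calls to 902 denser and 849 sparser, so the split of the calls depended on the scale. Without the chromosome 13 block, 476 genes were called sparser. The total of 2186 fell to 1367 without CTD replicate 2, to 1220 without H3K36me2 replicate 1 and to 1457 without H3K36me2 replicate 2, and rose to 3678 with robust peaks only.

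By their medians, genes called denser in the CTD differed from genes not called more in H3K36me2 than in the CTD. The calls were made on these same densities, so a difference between the groups is built in. Genes with few peaks of both kinds were not tested. The medians therefore describe the called genes and are not separate evidence. The genes called denser had medians of 243, 255 and 237 peaks per Mbp for the CTD and 69.6 and 80.9 for H3K36me2. Genes that were not called had medians of 220, 226 and 210 for the CTD and 209 and 217 for H3K36me2. Genes sparser in the CTD had medians of 112, 117 and 141 for the CTD and 271 and 263 for H3K36me2. Of 6777 coding genes of 50 kb or more, 257 (3.79%) had no peak in either H3K36me2 list, the longest of 303 kb, 63 (0.930%) had none in any CTD list, and 41 had none in any list.

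The 10 genes with the largest excess of the CTD had at most 1 peak in each H3K36me2 list. TRRAP, a scaffold of histone acetyltransferase complexes (chromosome 7, 98877933 to 99050831), had 33, 38 and 51 CTD peaks and 0 and 0 H3K36me2 peaks. Against a floor of 3 peaks per list its density was at least 13.6-fold higher in the CTD lists (limma adjusted p = 8.66e-05). NUP98, a nuclear pore protein (chromosome 11, 3671083 to 3797792), had 33, 37 and 34 CTD peaks and 0 and 0 H3K36me2 peaks. A second nuclear pore gene, NUP214, had 26, 27 and 36 against 0 and 0.

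Other genes of these 10 had similar values. PRKDC, the catalytic subunit of DNA-dependent protein kinase, had 39, 44 and 54 CTD peaks and 0 and 1 H3K36me2 peaks. RIF1, a factor of replication timing and double-strand break repair, had 22, 24 and 33 against 0 and 0, the chromatin remodeller INO80 had 37, 45 and 37 against 0 and 1, and the kinetochore gene KNTC1 had 34, 29 and 31 against 0 and 0. ZZEF1 had 24, 38 and 23 against 0 and 0. The CTD density in these 8 genes was at most 343 peaks per Mbp, in KNTC1. The remaining genes of this group, GRIK3, a kainate receptor subunit, with 81, 53 and 43 against 1 and 1, and HS3ST4, a heparan sulfate sulfotransferase, with 52, 51 and 56 against 1 and 1, belong to tissue-restricted families. In HS3ST4 the CTD lists had 117, 114 and 126 peaks per Mbp, below the genome density of about 172. These were 0.58, 0.59 and 0.67 of the GC expectation, so the CTD was sparse there too, and H3K36me2 more so. The log2 differences of the 10 genes were between 4.75 and 5.36 and depend on the added peak where a list held none.

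Of the 10 genes with the largest deficit of the CTD, 9 lay in the block of chromosome 13. GPC5, encoding a glypican (91398621 to 92873682), had 5, 5 and 9 CTD peaks and 233 and 183 H3K36me2 peaks (limma log2 difference −4.87, SE 0.47, adjusted p = 0.000222). PCCA, a subunit of propionyl-CoA carboxylase, had 2, 1 and 5 against 86 and 82, and NALCN, whose promoter is printed above, 1, 1 and 6 against 74 and 69. The others in the block were NALF1, ITGBL1, HS6ST3, MYO16, CLYBL and MBNL2. PLAC1 on the X chromosome had 2, 2 and 5 CTD peaks and 45 and 39 H3K36me2 peaks. The whole bin holding it (134000001 to 135000000) had 5, 5 and 24 CTD peaks and 68 and 53 H3K36me2 peaks. The counts of the bin include those of the gene, so they do not show whether the deficit extended beyond it.

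Outside the block, the genes of largest deficit were named after their values were seen. They included the semaphorin SEMA3A, an axon guidance factor, with 25, 19 and 42 CTD peaks and 133 and 135 H3K36me2 peaks, its relative SEMA3D with 9, 11 and 13 against 41 and 51, and the presynaptic gene PCLO with 16, 16 and 22 against 90 and 74. HGF, the ligand of the MET receptor, had 8, 4 and 3 against 24 and 21. These 4 genes are neighbours on chromosome 7, between 81699010 and 85187056. Here the CTD was not absent, and the limma log2 difference was −2.26 for SEMA3A and −1.97 for SEMA3D.

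Several genes of H3K36 methylation, among them NSD1, NSD2, NSD3 and SETD2, were denser in the CTD. Of 14 genes of the list, which included the reader MRG15, 10 were tested, 6 were called denser and 0 sparser by limma, against 30.5% and 8.82% of all genes. NSD2 had 28, 22 and 22 CTD peaks and 1 and 2 H3K36me2 peaks (log2 difference 3.34, SE 0.29). NSD1 had 46, 56 and 38 against 9 and 8, NSD3 31, 22 and 28 against 4 and 4, and SETD2 30, 46 and 42 against 8 and 14. The demethylase gene KDM2A had 49, 41 and 28 against 7 and 7, and SETD3 15, 13 and 18 against 3 and 4. The other demethylase genes were not called and their lists overlapped, with 44, 47 and 57 against 54 and 46 in KDM4C, 61, 47 and 24 against 31 and 38 in KDM2B and 55, 51 and 51 against 42 and 52 in KDM4B. The reader gene MORF4L1 (MRG15), with 29, 26 and 14 against 17 and 16, was not called either. Over all members the density relative to the genome was 1.40, 1.29 and 1.13 for the CTD and 0.60 and 0.65 for H3K36me2.

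Genes of nucleotide excision repair had little H3K36me2. Over 27 genes of the pathway, most shorter than 50 kb, the relative density was 1.40, 1.33 and 1.10 for the CTD and 0.41 and 0.42 for H3K36me2, against 1.13, 1.12 and 1.09 and 0.94 and 0.95 over all coding genes. For H3K36me2, coding genes shorter than 20 kb stood at 0.71 and 0.81 and those of 20 to 100 kb at 0.71 and 0.76. Part of the deficit was thus shared by genes of like length. At equal GC content the repair genes stood at 0.35 and 0.35 for H3K36me2 and at 1.11, 1.16 and 1.01 for the CTD. Of 4 members tested, ERCC6 (the Cockayne syndrome B protein) had 20, 18 and 19 CTD peaks and 7 and 3 H3K36me2 peaks, and ERCC8 (Cockayne syndrome A) 12, 16 and 19 against 9 and 5, and both were called denser by limma. These are 2 of 4, against 30.5% of all genes tested. RPA3, a subunit of the single-strand binding protein RPA, had 13, 18 and 21 against 22 and 23, which was not called, and relative to the GC expectation it was called sparser in the CTD. ERCC1, with 32, 29 and 12 against 14 and 14, was not called.

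Genes for the 85 cytosolic ribosomal proteins gave a similar picture, with relative densities of 1.62, 1.53 and 1.40 for the CTD and 0.39 and 0.49 for H3K36me2. The 246 zinc finger genes of chromosome 19 had a CTD density near that of the genome, 1.05, 0.97 and 0.94, with H3K36me2 at 0.40 and 0.44. Of their 15 tested members 9 were called denser in the CTD and 0 sparser by limma, against 30.5% and 8.82% of all genes. The 53 clustered protocadherins, neuronal adhesion genes that share much of their sequence span, had 1.36, 1.55 and 1.58 against 0.76 and 1.01. Their 33 tested members, of which 19 were called denser and 0 sparser against the same shares of all genes, overlap each other and are not independent.

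Other lists differed little or went the other way. HOX genes, which pattern the body axis, had 2.2, 1.39 and 1.22 for the CTD and 1.45 and 1.71 for H3K36me2, and the lists overlapped. Olfactory receptor genes stood at 0.944, 0.941 and 0.973 against 0.937 and 0.909, so the CTD lists were higher by a small margin. Long neuronal adhesion and synapse genes had 0.74, 0.87 and 1.01 against 0.93 and 0.86, and of 21 tested, DPP10, CNTN4 and CSMD1 were called denser and 0 sparser by limma, against 30.5% and 8.82% of all genes. Relative to the GC expectation 3 were called denser and 7 sparser, against 36.3% and 13.4%, and all CTD lists lay below the H3K36me2 lists over the whole list. The 16 genes of the osteoblast lineage and its matrix were the one list of the 9 in which every H3K36me2 list exceeded every CTD list, with 1.09, 1.10 and 1.19 for the CTD and 1.42 and 1.37 for H3K36me2.

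Within the osteoblast list the genes were divided. Of 6 tested, 2 were called denser in the CTD and 3 sparser by limma, against 30.5% and 8.82% of all genes. CDH11, a cadherin of mesenchymal cells, had 23, 20 and 24 CTD peaks and 59 and 53 H3K36me2 peaks (limma log2 difference −1.29, SE 0.20, adjusted p = 0.00153). RUNX2, the transcription factor that commits cells to the osteoblast lineage, had 75, 79 and 77 against 113 and 108 (adjusted p = 0.0433), and TWIST1 12, 10 and 20 against 29 and 31 (adjusted p = 0.017). FN1, encoding fibronectin, had the opposite pattern with 19, 19 and 14 against 1 and 1. ALPL was not called.

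Across the genome the lists of one experiment resembled each other more than those of the other. In 2920 bins of 1 Mb the Spearman's rho of peak density was 0.77 to 0.95 between CTD lists, 0.97 between the H3K36me2 lists and 0.36 to 0.60 between a CTD and an H3K36me2 list. With the GC expectation subtracted the last range was 0.45 to 0.58. In 291115 bins of 10 kb the values were 0.36 to 0.47, 0.73 and 0.24 to 0.29. All bins share base composition and the gaps of the assembly, and these values are descriptions.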

How the data were processed

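ChIP-seq of U2OS cells without UV was used, with 3 CTD and 2 H3K36me2 peak lists. The authors trimmed reads (Trim Galore 0.6.5), mapped them with BWA 0.7.17-r1188 to an hg38 reference lacking chromosome Y, filtered alignments (SAMtools 1.7, bedtools 2.29.2, Picard) and ran MACS2 2.2.7.1 on each replicate for broad peaks with a stated p cutoff of 0.01 (the deposited broad peaks reach down to a −log10 p between 1.22 and 1.40), and the versions are those of the submitters' processing notes. Additional paired-end H3K36me2 reads were pooled before calling. The authors deposited, for each peak, its position, a fold enrichment that is the ratio of ChIP to control, and a −log10 p-value. The lists give no read depth, so precision rests on the spread between lists. The labels call the replicates biological without saying whether they were separate cultures, and p-values then measure only the spread between these samples.

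Peak centres were counted per Mbp of known bases of hg38 with GENCODE v44 (19969 coding genes without ASH1L), the build of the files. Promoter sequences are from RefSeq (GRCh38.p14). Equal GC content means comparison within classes of 2.5% of 1-kb windows, and the GC expectation is the density of a list in all windows of the same class. Bins of 1 Mb needed 50% known bases, and gene-rich and gene-poor bins are the upper and lower 20% by coding starts, ties included. The log2 of peaks per Mbp, after adding 1 peak per feature, was fitted with limma 3.58.1 (trend, Benjamini-Hochberg) over bins and genes with a mean of at least 10 peaks. A call needed an adjusted p under 0.05 and no overlap of the lists. For single values an exact permutation test, two-sided, was used. Scripts were tested on simulated data. Software was Python 3.11.15, SciPy 1.17.1 and R 4.3.3.

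Named were the 4 bins and 10 genes with the largest difference each way among those called and the 5 starts of each kind with the highest mean −log10 p. The comparison, the gene lists and the tests were chosen with earlier results of these data known. Alternatives were robust peaks (overlapping another list of the group), bases covered, the strongest 50000 peaks, a −log10 p of 2 or more, chromosomes 1 to 22, other windows, bins, annotations, pseudocounts, scaling and filters, a replicate block, and leaving out each list. Results for some genes are not reported here.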

Additional observations from a re-analysis of the deposited data

Results flagged for a closer look

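In 4 of the 6 density ratios every CTD list lay on one side of even density and every H3K36me2 list on the other, and these differences were not tested beyond the exact permutation test, whose smallest p with 3 lists against 2 is 0.2. The difference between CTD and H3K36me2 in log2 ratio was 1.27 for gene starts against the genome and 1.06 for gene starts at equal GC content. It was 0.43 for gene bodies against intergenic sequence and 1.05 for gene-rich against gene-poor bins at equal GC content.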

How the results depend on the processing

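For gene starts, gene bodies and gene-rich bins, with and without equal GC content, the difference between CTD and H3K36me2 kept its direction under every alternative tried, with values from 0.28 to 1.63. The smallest differences came with all annotated genes, 0.47 for starts, 0.42 for starts at equal GC content and 0.28 for gene bodies. The lists of the groups did not overlap under any alternative for which all 5 were compared. The ratio of GC-rich to GC-poor windows, −0.04, changed sign with robust peaks only (0.19), with windows of 5 kb (0.77), under the replicate block (0.30) and when lists were left out (−0.45 to 0.30), and moved to −1.06 with the strongest 50000 peaks and to −0.44 with bases covered. The cause was not tested. Called bins, 1350, were 2120 with robust peaks, 2577 with 500-kb bins, of which more were tested, and 656 to 1824 with a list left out. Called genes, 2186, were 3678 with robust peaks and 1220 to 2162 with a list left out. A lone H3K36me2 list is assumed to vary like the CTD lists. Under the replicate block, which for the ratios uses the numbers shared by both groups and so equals leaving out CTD replicate 3, 1462 bins and 1772 genes were called, but the replicate numbers are only names. The deviations of same-numbered lists correlated with −0.33 for number 1 and 0.03 for number 2 over 2921 bins. No value could pass 0.05 in the permutation test, so these directions carry no significance, and the absence of read depth means that shallow and deep lists were treated alike.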
